A study of Mus musculus with 5 samples.

Results

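Divergent bidirectional coding promoters are stretches of DNA from which a pair of protein-coding genes is transcribed in opposite directions, away from each other. They were examined for H3K27ac, an acetyl mark on the tail of histone H3, in Treg (regulatory T) cells isolated from the large intestine. A peak of the deposited count table was taken as a member when it was narrower than 5000 bp and overlapped the interval between the start sites of such a gene pair, with the starts at most 1000 bp apart. Gene starts were those of protein-coding genes of GENCODE M21 on mm10. The annotation held 754 such pairs, made of 1487 of 21938 coding genes (6.78%). Of these pairs, 646 (85.7%) carried a peak narrower than the limit, 17 (2.25%) carried only a wider peak and 91 (12.1%) carried none. The members were 632 of 124158 peaks (0.509%), of which 613 lay at 1 pair and 19 at 2 pairs.

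The mark was profiled by CUT&Tag, in which an antibody directs a transposase to the histone mark and the DNA beside it is tagged for sequencing. The Ctrl group was Foxp3CreSetd2flox/+ and the KO group Foxp3CreSetd2flox/flox, both in C57BL/6 mice 2 weeks of age, with 2 libraries per group. Cre was driven by Foxp3 and reported by YFP, so that both groups carried it in Treg cells, and the Ctrl group also carried 1 floxed allele of the histone methyltransferase gene Setd2. Each library came from 60000 CD3+CD4+Foxp3-YFP+ cells sorted from the large intestine, with several animals of both sexes pooled. An IgG library was listed but has no values here and was not analysed. The libraries held 2395002 to 4712473 counts in peaks. In such bulk libraries, fewer cells with the mark and less of the mark per cell cannot be told apart. Each of 6 Treg markers (Foxp3, Il2ra, Ctla4, Ikzf2, Cd3e and Cd4) had a peak at its start, from 14.5 CPM at Ikzf2 in Ctrl 1 to 199 CPM at Foxp3 in KO 2. The 6 markers of other cells (Epcam, Cdx2, Vil1, Csf1r, Kit and Cd8a) had 0 peaks at their starts. A low peak did cover the start of Cd8b1, the gene of the other CD8 chain, with 4.17 to 8.6 CPM. CPM values scale the count of a peak to the counts in all tested peaks of its library, after TMM normalization.

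Divergent promoters are a regular arrangement in mammalian genomes. The partners share one nucleosome-depleted stretch, rich in CpG dinucleotides, from which RNA polymerase II starts on both strands. They are known for housekeeping functions such as DNA repair, RNA metabolism and mitochondrial biogenesis, and often lack a TATA box. H3K27ac is deposited by the acetyltransferases p300 and CBP on the nucleosomes that flank active promoters, on either side of the open stretch. Setd2 methylates lysine 36 of histone H3 over the bodies of transcribed genes.

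The stretch between the starts is short, and is shown here for pairs that the results below return to. The first 3 are pairs described in textbooks, with the tumour suppressors Trp53 and Brca1 and the mitochondrial translation genes Mrps12 and Sars2. The other 3 had small unadjusted p-values in the comparison of KO with Ctrl. Each run is the complete mm10 sequence from the base after the start of the left gene (minus strand) to the base before the start of the right gene (plus strand), read 5′ to 3′ on the plus strand. Capitals mark matches, on either strand, to 1 of 10 short motifs: CCGGAAG for ETS factors, GCGCATGC for NRF1, CCAAT for NFY, GGGCGG for SP1, AAGATGG for YY1, TGACGTCA for CREB, CACGTG for E-box factors, TATAAA for the TATA box, TGTGGTT for RUNX and GTAAACA for forkhead factors.
Wrap53/Trp53 (chr11:69580256-69580358, plus strand): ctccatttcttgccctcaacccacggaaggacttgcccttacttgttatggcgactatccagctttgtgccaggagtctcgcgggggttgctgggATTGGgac
Brca1/Nbr1 (chr11:101551956-101552148, plus strand): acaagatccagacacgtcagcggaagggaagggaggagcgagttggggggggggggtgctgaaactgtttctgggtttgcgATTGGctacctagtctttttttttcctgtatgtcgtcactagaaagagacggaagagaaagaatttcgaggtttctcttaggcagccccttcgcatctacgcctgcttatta
Mrps12/Sars2 (chr7:28741821-28741991, plus strand): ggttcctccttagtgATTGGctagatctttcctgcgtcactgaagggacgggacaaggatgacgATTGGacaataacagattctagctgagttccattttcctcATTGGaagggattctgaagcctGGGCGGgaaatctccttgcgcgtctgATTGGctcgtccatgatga
Idh3g/Ssr4 (chrX:73786898-73787027, plus strand): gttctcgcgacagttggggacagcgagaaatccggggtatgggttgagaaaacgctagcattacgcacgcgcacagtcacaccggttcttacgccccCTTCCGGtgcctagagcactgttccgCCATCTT
S100a1/S100a13 (chr3:90514393-90514434, plus strand): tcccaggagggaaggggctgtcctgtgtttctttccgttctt
Cfap57/Ebna1bp2 (chr4:118620778-118620798, plus strand): cctatagcaacgagaaaaccg

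These stretches ran from 21 bp between Cfap57 and Ebna1bp2 to 193 bp between Brca1 and Nbr1. Mrps12/Sars2 held the CCAAT box at 4 positions beside 1 GC box. Idh3g/Ssr4 held an ETS match and a YY1 match and had 12 CpG dinucleotides in 130 bp. No match of these letters lay between S100a1 and S100a13 or between Cfap57 and Ebna1bp2.

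Windows of 300 bp were then compared over all pairs, centred midway between the starts. For one-direction promoters, whose gene had no coding start on the other strand within 1000 bp upstream, the window ran from 250 bp before to 50 bp after the start. The ETS motif lay in 198 of 646 pairs with a member peak (30.7%), in 8.79% of the 91 pairs with no peak, in 19.4% of 7669 one-direction promoters with a peak and in 8.86% of all 32851 promoters of the RefSeq table (GRCm38), which has the same window as the one-direction set. For NRF1 the shares were 7.12%, 1.1%, 5.91% and 2.71%, in the same order, and for YY1 they were 11%, 4.4%, 7.05% and 6.34%. SP1 boxes lay in 70%, 52.7%, 61.2% and 35.7%, and CCAAT in 45%, 47.3%, 40.1% and 37.4%. The CREB motif was in 4.64%, 2.2%, 3.85% and 1.79%, and the E-box in 11%, 9.89%, 10.3% and 7.15%. The remaining motifs were less frequent at divergent pairs than over all promoters. TATAAA was in 4.18% of the pairs with a member peak and 13.6% of all promoters, RUNX in 2.94% and 5.27%, and the forkhead motif, the family of Foxp3, in 1.08% and 3.65%. Without a peak these 3 motifs lay in 5.49%, 1.1% and 0% of pairs, and at one-direction promoters in 7.02%, 4.2% and 2.79%. The motifs are letters only and the windows were placed differently on pairs and on single starts, so the shares are a description.

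**Figure D1:**
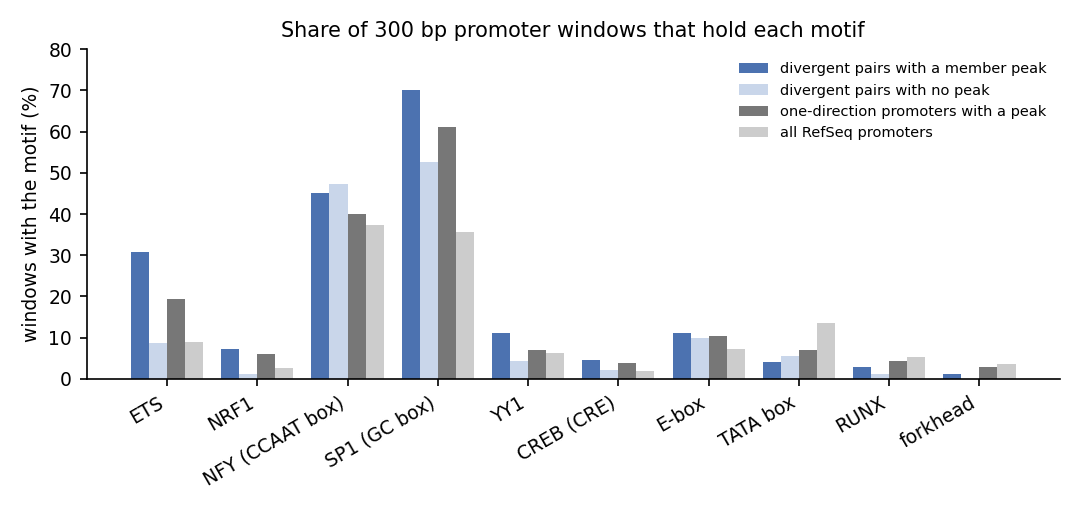
Share of 300 bp promoter windows (y axis, percent) that hold each of 10 motifs (x axis), for divergent pairs with a member peak, divergent pairs with no peak, one-direction promoters with a peak and all RefSeq promoters. The ETS bar stands at 30.7% for divergent pairs with a peak and at 8.79% for those with none, and the TATA bar is highest over all promoters, at 13.6%.

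CpG content was also highest at pairs with a member peak. The ratio of observed to expected CpG in the window had a median of 0.86 at pairs with a member peak, 0.65 at pairs with no peak and 0.75 at one-direction promoters. A ratio of at least 0.6, a usual mark of a CpG island, was reached by 576 of 646 pairs with a member peak (89.2%), by 49 of 91 with no peak (53.8%) and by 70.7% of one-direction promoters. GC content differed less, with medians of 62.7%, 61% and 59.3%. Starts were a median of 124 bp apart at pairs with a member peak (quartiles 63 and 232 bp) and 151 bp apart at pairs with no peak. The share of pairs with no peak was 8.97% of the 312 pairs with starts 1 to 100 bp apart, 12.4% of 306 pairs above that and up to 300 bp, and 18.4% of 136 pairs above 300 and up to 1000 bp. Over the same 3 classes the CpG ratio fell from 0.91 to 0.85 and 0.71, while the median CPM per kb of the member peaks was 16.3, 16.7 and 17.2.

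The pairs belonged to different gene groups in unequal measure. Of the replication-dependent histone genes, which package newly made DNA, 27 of 67 (40.3%) had a divergent partner within the limit, and 10 of the 11 histone pairs with a peak joined a histone gene to another. DNA repair and replication genes stood at 45 of 151 (29.8%), RNA polymerase II and general transcription genes at 28 of 130 (21.5%) and genes of mitochondrial proteins at 47 of 223 (21.1%). RNA processing and splicing genes were at 17.8%, cell cycle and mitosis genes at 17.7%, ubiquitin and proteasome genes at 12%, ribosome and translation genes at 9.86%, chromatin regulators at 8.55% and zinc finger factors at 5.77%. T cell and immune genes had 5 of 170 (2.94%) in such pairs, against 6.78% of all coding genes. Of 14 textbook pairs, 6 met the rule and each of these had 1 member peak. The other 8, Hspd1/Hspe1 among them, did not meet it by the outermost gene starts of this annotation. Among these, Sec61g/Rpa2 had no distance between starts, so it was not a neighbouring pair here.

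A single peak usually lay over the whole arrangement. In 607 of 651 links of a peak with a pair (93.2%), 1 peak covered both starts. Member peaks had a median width of 1817 bp (quartiles 1381 and 2462 bp), one-direction promoter peaks 1482 bp and all peaks 477 bp. Among 569 member peaks over both starts of a single pair, the peak reached a median of 798 bp past the minus-strand start and 839 bp past the plus-strand start. The plus side was the longer in 285 (50.1%) and the minus side in 283 (49.7%). Plus and minus are strands of the genome, so an even split does not show that each peak is symmetric. The longer side reached a median of 1107 bp and the shorter side 605 bp. A reach of more than 2 times the other side was found in 242 of 569 (42.5%). At one-direction peaks over 1 start it was found in 3423 of 6169 (55.5%). One-direction peaks over 1 start reached 527 bp upstream and 922 bp downstream, and the downstream side was the longer in 4460 of 6169 (72.3%). Among the divergent peaks, that of Idh3g/Ssr4 was close to even, at 1001 bp into Idh3g and 1045 bp into Ssr4.

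**Figure D2:**
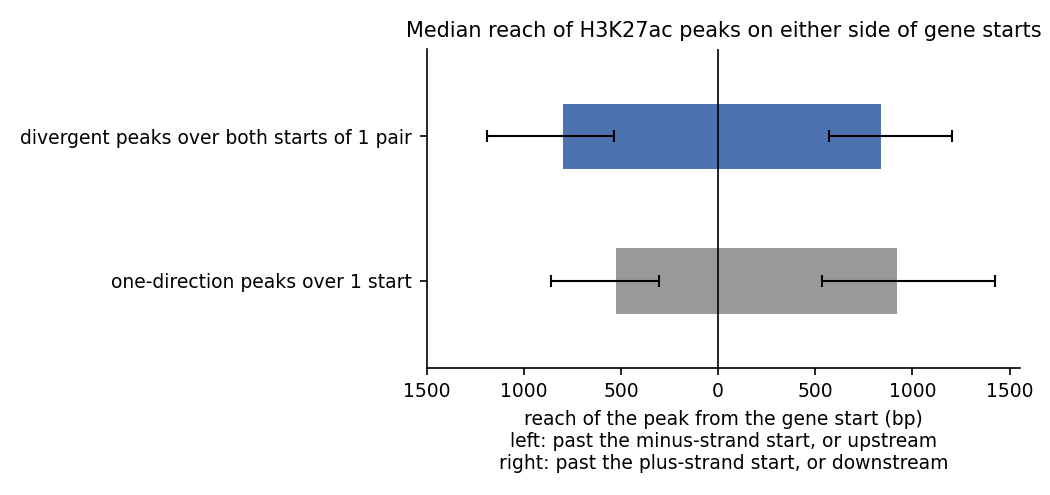
Bars give the median reach of peaks (x axis, bp) to the left and right of gene starts, and whiskers the quartiles over peaks. Divergent peaks reach 798 bp past the minus-strand start and 839 bp past the plus-strand start, sides that are strands of the genome. One-direction peaks reach 527 bp upstream and 922 bp downstream, sides that are set by the gene.

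The level of H3K27ac at the members was high and much the same in all libraries. The median member peak held 72 (Ctrl 1), 100 (Ctrl 2), 85 (KO 1) and 136 counts (KO 2), which came to 32.6, 29.8, 31.7 and 32.6 CPM. All peaks of the table, which were narrower, had medians of 3.11 to 4.1 CPM. Of the tested members, 52.5% lay in decile 10 of tested peaks by abundance per peak, the highest, and 34.2% in decile 9. Per kb of peak the members had medians of 16.9 and 15.8 CPM in Ctrl, against 17 and 17.5 CPM in KO. All peaks had 7.33 and 8.11 CPM per kb in Ctrl and 8.25 and 6.11 CPM per kb in KO, a smaller gap than per peak. One-direction promoter peaks had 15 and 13.2 CPM per kb in Ctrl and 14.5 CPM per kb in each KO library. The difference of the medians, divergent minus one-direction, was 0.23 on the log2 scale of CPM per kb (SD 0.042 over 4 libraries, 1.17-fold). It was positive in 4 of 4 libraries, at 0.17, 0.25, 0.23 and 0.27, and the exact two-sided sign-flip permutation test gave p = 0.13, the smallest that 4 libraries allow. Per peak, without division by width, the difference was 0.55 (SD 0.016, 1.46-fold, p = 0.13 in the same exact test). Against the 420 one-direction peaks with a noncoding gene start on the other strand, the members were 0.10 higher per kb (SD 0.041) and 0.27 higher per peak (SD 0.062), in 4 of 4 libraries on both scales and with p = 0.13 in the same exact test.

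**Figure D3:**
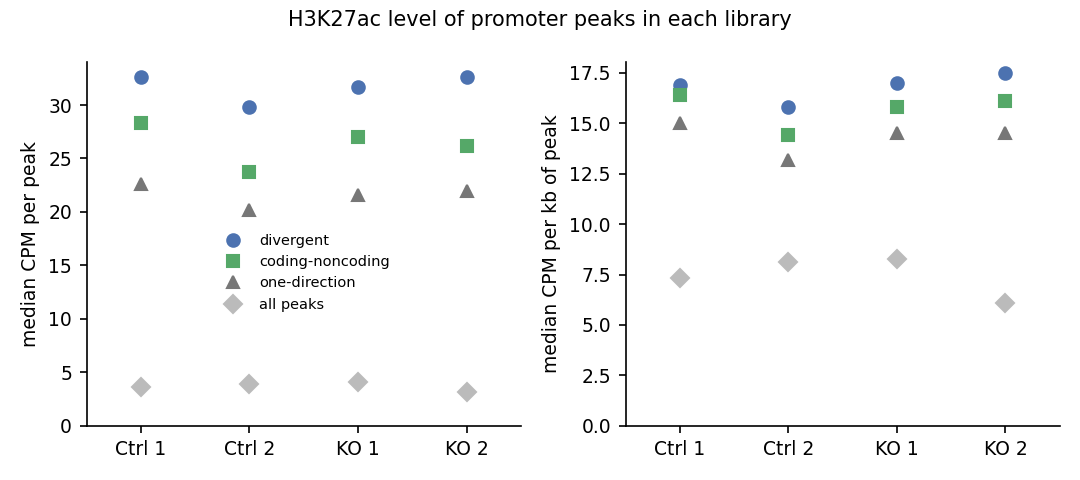
Median CPM per peak (left) and median CPM per kb of peak (right) in each of the 4 libraries, for divergent coding promoters, coding starts with a noncoding start opposite, one-direction coding promoters and all peaks. In every library the divergent points, 29.8 to 32.6 CPM per peak, lie above the 3 other sets.

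Within the members, levels spanned a wide range. The highest by CPM per peak was Tada3/Arpc4, a subunit of SAGA-type acetyltransferases opposite a subunit of the actin-nucleating Arp2/3 complex, with 152 and 161 CPM in Ctrl and 148 and 184 CPM in KO. Zfp91/Lpxn followed, where Lpxn encodes the adaptor leupaxin of haematopoietic cells, with 127 and 123 CPM in Ctrl and 143 CPM in each KO library. Psme2/Rnf31 pairs the proteasome activator PA28 beta with a subunit of the linear ubiquitin ligase complex, and had 103 and 120 CPM in Ctrl against 123 and 156 CPM in KO. Ddias/Prcp had 151 and 101 CPM in Ctrl and 127 and 103 CPM in KO, and Hsp90b1/Ttc41, with the endoplasmic reticulum chaperone GRP94, had 108 and 91.7 against 132 and 108 CPM. None of these 5 had an unadjusted p under 0.05, and the libraries overlapped at Tada3/Arpc4 and Ddias/Prcp. Per kb, the order was another one, with Eef1d/Tigd5 at 49 CPM per kb, Pdcd10/Serpini1 at 48.6 and Hdlbp/Sept2 at 44.3 (named after their values were seen). The lowest was Best1/Rab3il1 at 5 CPM per kb, with 1 and 14 counts in Ctrl and 0 and 23 counts in KO.

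The comparison of KO with Ctrl asked whether the loss of Setd2 changed H3K27ac. At an adjusted p under 0.05 over all 74550 tested peaks in the quasi-likelihood test of edgeR, 0 of 632 members were higher in KO (0.00134% of all tested peaks) and 0 were lower (0% of all tested peaks). DESeq2 also called 0 members. At an unadjusted p under 0.05, edgeR gave 8 members higher (1.27%, where 1.45% of all tested peaks were higher) and 4 lower (0.633%, against 2.79% of all tested peaks), and DESeq2 gave 2 members higher and 0 lower. One-direction promoters gave 67 higher and 53 lower of 6951 tested. The smallest adjusted p of a member was 0.998. Leaving out a single library moved the 8 and 4 to 9 and 2 without Ctrl 1, to 10 and 8 without Ctrl 2, to 5 and 11 without KO 1, and to 1 and 2 without KO 2.

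Fold changes of the members ran from −1.25 to 1 on the log2 scale, and 569 of 632 (90%) were within 0.5 of 0, against 58.4% of all tested peaks, most of which held fewer counts. At like abundance the spread was much the same. In decile 10 the interquartile range was 0.30 for members, 0.32 for one-direction promoters and 0.33 for all tested peaks, and in decile 9 it was 0.48, 0.39 and 0.44. The median member differed by 0.33 on the log2 scale between the Ctrl libraries, by 0.28 between the KO libraries and by 0.18 between the group means. The median log2 fold change was 0.051, beside 0.06 at one-direction promoters and −0.012 over all tested peaks. It was −0.03 with total counts as library size, −0.072 with a loess offset on abundance and −0.021 without KO 2. Members higher in KO were 372 (58.9%), which became 45.1% and 39.2% under the former 2 scalings. At 122 members (19.3%, where 16.9% of all tested peaks did) the lower KO library exceeded the higher Ctrl library, and at 53 the opposite held (8.39%, against 16.4%). One-direction promoters had similar shares, 17.1% and 9.44%. The members took 2.17% of all counts in Ctrl 1 (exact Clopper-Pearson interval at the 95% level 2.15 to 2.19%), 1.98% in Ctrl 2 (1.96 to 1.99%), 2.05% in KO 1 (2.04 to 2.07%) and 2.11% in KO 2 (2.1 to 2.13%). These intervals cover counting error only. The means were 2.07% ± 0.136 and 2.08% ± 0.0415 (SD, n = 2 each), with p = 1 in the exact two-sided permutation test, where 2 against 2 libraries cannot go below 0.33. The member peaks made up 1.24% of the length of all peaks.

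**Figure D4:**
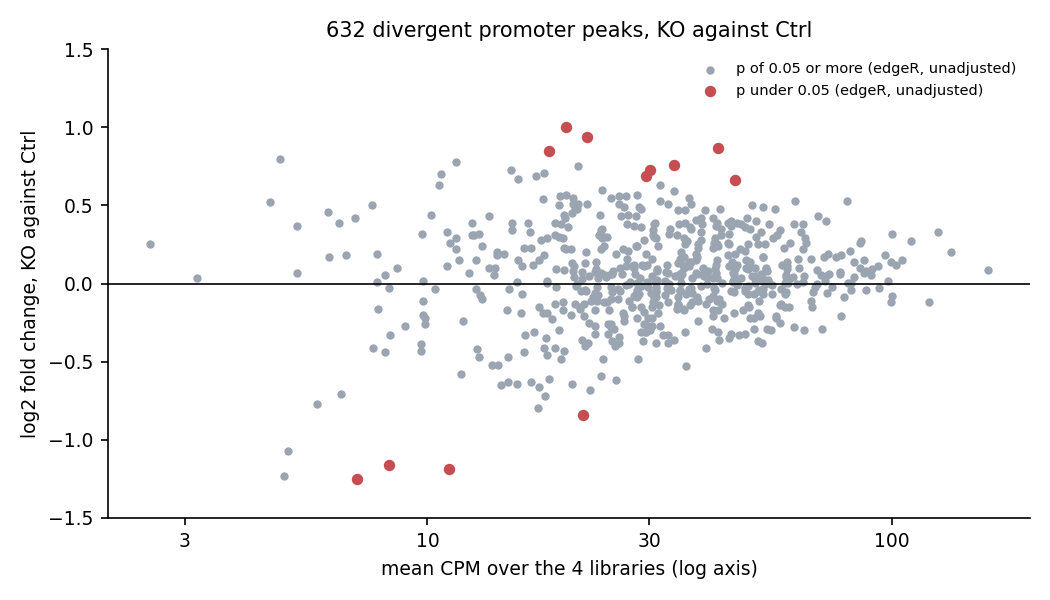
Each point is 1 of the 632 members, with its mean CPM over the 4 libraries (x axis, log scale) and its log2 fold change of KO against Ctrl (y axis, TMM scaling). Red points are the 12 members with an unadjusted p under 0.05 in edgeR, 8 above 0 and 4 below, and 90% of all points lie within 0.5 of 0.

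The smallest p was at Idh3g/Ssr4 on chromosome X (73785896 to 73788073), where a subunit of mitochondrial isocitrate dehydrogenase stands opposite a subunit of the translocon-associated complex of the endoplasmic reticulum. The peak had 26.7 and 33 CPM in Ctrl, and 54.4 and 55.1 CPM in KO. This was a log2 fold change of 0.87 (SE 0.32), for which edgeR gave an unadjusted p of 0.00701 and an adjusted p of 0.998. The KO libraries lay close together and above both Ctrl libraries, and the value ran from 0.72 to 1.04 when a library was left out.

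Ccdc151/Prkcsh, a cilia gene opposite the beta subunit of glucosidase II, had 10.4 and 15.8 CPM in Ctrl and 32.4 and 21.1 CPM in KO, a log2 fold change of 1 (SE 0.40). This 900 bp peak began inside the stretch between the starts and covered the start of Prkcsh only. At S100a1/S100a13, both genes of calcium-binding proteins, the values were 21.7 and 28.6 CPM in Ctrl and 35 and 50.6 CPM in KO, a log2 fold change of 0.76 (SE 0.34). Plgrkt/Cd274 joins a plasminogen receptor with the gene of the checkpoint ligand PD-L1 and measured 33.9 and 37.2 CPM in Ctrl and 52.9 and 59.9 CPM in KO (0.66, SE 0.31). The rule that named these 3 took only peaks whose libraries did not overlap between the groups. That they do not overlap is therefore not a separate result. All 3 had an adjusted p of 0.998 in edgeR.

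On the higher side also stood Mrps12/Sars2, Snx1/Ciao2a and Rps28/Ndufa7. Mrps12 encodes a protein of the mitochondrial ribosome and Sars2 the mitochondrial seryl-tRNA synthetase, and their shared peak had 21.7 and 23.5 CPM in Ctrl and 32.8 and 42.4 CPM in KO, a log2 fold change of 0.73 (SE 0.35). Snx1/Ciao2a, named after its values were seen, had 7.69 and 18.2 CPM in Ctrl and 19.7 and 27.8 CPM in KO. Rps28/Ndufa7, a cytosolic ribosomal protein opposite a subunit of respiratory complex I and also named after its values were seen, had 19 and 25.9 against 37.3 and 35.9 CPM. KO was above Ctrl in both libraries at each of the 3, although by less than 2 CPM at Snx1/Ciao2a.

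On the lower side, Cfap57/Ebna1bp2, a cilia gene opposite a ribosome biogenesis gene, had 20.8 and 10.1 CPM in Ctrl and 7.45 and 5.99 CPM in KO, a log2 fold change of −1.19 (SE 0.51) with an adjusted p of 0.998 in edgeR. Without Ctrl 1, the higher Ctrl library, the value was −0.61. Bag5/Apopt1 pairs a cochaperone of Hsp70 with a gene for assembly of cytochrome c oxidase, and had 13.6 and 9.23 CPM in Ctrl and 6.71 and 3.59 CPM in KO, from 15 to 31 counts. At Fpgt/Lrriq3 the groups overlapped, with 38.5 and 17 CPM in Ctrl and 19.7 and 11.3 CPM in KO. Atp7b/Alg11, a copper transporter opposite a mannosyltransferase and named after its values were seen, also overlapped, with 14 and 5.65 against 7.08 and 1.44 CPM from 6 to 31 counts. Without overlap but with larger p-values, Ndufaf2/Ercc8 had 33.9 and 21.4 CPM in Ctrl and 17.5 and 16.8 CPM in KO (log2 fold change −0.68, SE 0.38, and −0.33 without Ctrl 1), and Trmt6/Mcm8 had 23.1 and 21.4 against 12.3 and 14.6 CPM (−0.72, SE 0.42). Ercc8 and Mcm8 act in DNA repair, and neither peak had an unadjusted p under 0.05. Both were named by the rule that took only peaks whose libraries did not overlap.

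**Figure D5:**
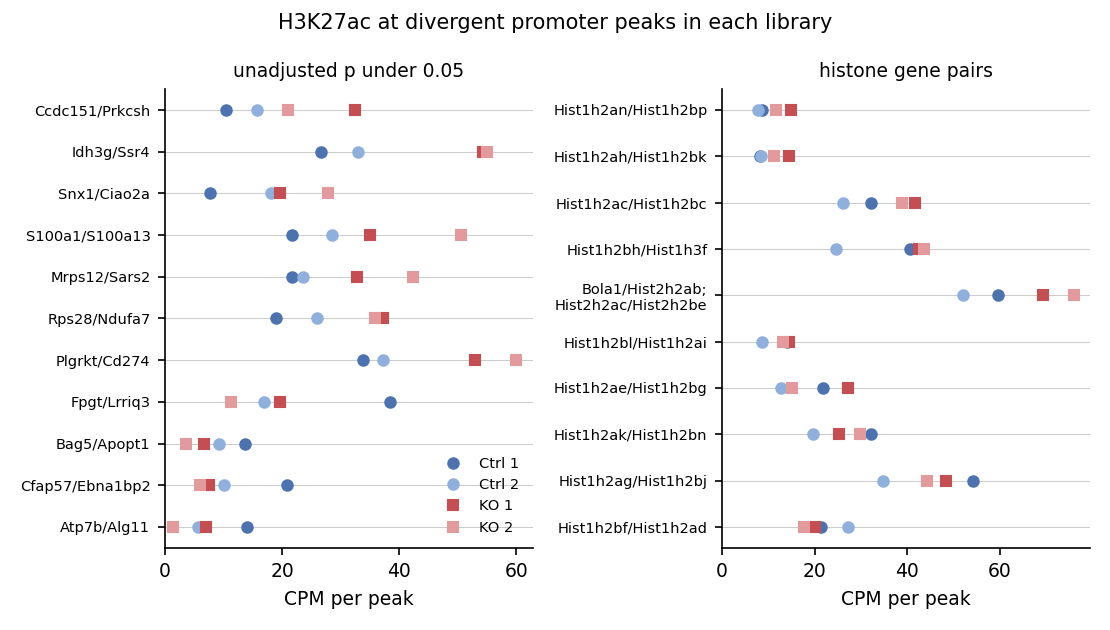
CPM per peak (x axis) in each of the 4 libraries (circles Ctrl, squares KO) for 11 of the 12 members with an unadjusted p under 0.05 (left) and the 10 member peaks at histone gene pairs (right), ordered by log2 fold change. At Idh3g/Ssr4 the KO squares, 54.4 and 55.1 CPM, lie clear of the Ctrl circles, 26.7 and 33 CPM, while at Fpgt/Lrriq3 and Atp7b/Alg11 circles and squares overlap.

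The 6 textbook pairs differed in direction. Brca1/Nbr1, a DNA repair gene opposite an autophagy receptor, had 46.1 and 61 CPM in Ctrl and 61.9 and 77.4 CPM in KO (log2 fold change 0.38, SE 0.30). Gart/Son, purine synthesis opposite a splicing cofactor, had 49.3 and 45.2 against 64.1 and 58.7 CPM (0.38, SE 0.30), and Atm/Npat, the DNA damage kinase opposite an activator of histone genes, 35.7 and 30.1 against 42.5 and 36.7 CPM (0.27, SE 0.33). Both KO libraries were above both Ctrl libraries at these 3 and at Mrps12/Sars2. Of all members 19.3% had that order, and of all tested peaks 16.9%. The libraries overlapped at Mcm4/Prkdc, a helicase subunit opposite the DNA-PK kinase, with 58.8 and 56.2 CPM in Ctrl and 75.6 and 47.4 CPM in KO. They overlapped also at Wrap53/Trp53, with 56.1 and 65.2 CPM in Ctrl and 42.8 and 61.6 CPM in KO (−0.21, SE 0.30). Of the 6, the unadjusted p was under 0.05 at Mrps12/Sars2 only.

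Among the gene groups, none had a member past the adjusted threshold. Histone pairs had the highest median log2 fold change, 0.34 over 10 peaks and 0.26 with the loess offset, beside −0.012 over all tested peaks. Of these 10 peaks 9 were higher in KO, 0 had an unadjusted p under 0.05, and the KO libraries were both above Ctrl at 5 and both below at 1, where 16.9% and 16.4% of all tested peaks were. Over all tested peaks 49.2% were higher, and over all members 58.9%. Hist1h2ac/Hist1h2bc had 32.1 and 26.2 CPM in Ctrl and 41.7 and 38.8 CPM in KO (0.47, SE 0.33). The peak over Bola1/Hist2h2ab and Hist2h2ac/Hist2h2be had 59.7 and 52.1 against 69.3 and 76 CPM (0.38, SE 0.30). The exception in direction was Hist1h2bf/Hist1h2ad, with 21.3 and 27.1 against 20.1 and 17.7 CPM (named after its values were seen). Histone genes are near-identical copies, and reads that align to more than 1 copy had been left out, so these counts come from the stretches that differ. The histone peaks had a median of 12.5 CPM per kb, against 16.7 for mitochondrial genes and 19.3 for RNA processing genes.

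Cell cycle and mitosis genes had 16 peaks, 12 of them higher in KO, with a median of 0.18 and 0.032 with the loess offset. The KO libraries were both above Ctrl at 5 and both below at 0, beside 19.3% and 8.39% of all members and 16.9% and 16.4% of all tested peaks. Aurka/Cstf1, a mitotic kinase opposite an mRNA cleavage factor, had 69.2 and 55.4 CPM in Ctrl and 85 and 79.5 CPM in KO (0.40, SE 0.29). Ift80/Smc4, with a condensin subunit, overlapped at 83.2 and 72.9 against 81.2 and 106 CPM, and Brd8/Kif20a had 22.2 and 29.5 against 25 and 36.2 CPM. DNA repair and replication genes had 43 peaks with a median of 0.046, or −0.13 with the loess offset, and 24 of them were higher in KO under TMM. Mitochondrial genes had 44 peaks with a median of 0.021 (−0.082 with the loess offset), led in level by Uqcrh/Lrrc41 with 103 and 75.9 against 99.1 and 123 CPM. The 2 of them with an unadjusted p under 0.05 were Mrps12/Sars2 and Rps28/Ndufa7, which are also the 2 of the ribosome and translation genes. Both were higher in KO, as were 1.27% of all members and 1.45% of all tested peaks at that limit.

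The remaining groups had medians near that of all members. Ribosome and translation genes had 0.11 over 19 peaks (0.0073 with the loess offset), RNA processing genes 0.057 over 38 (−0.08), ubiquitin and proteasome genes 0.046 over 33 (−0.047), zinc finger factors 0.031 over 19 (−0.036), RNA polymerase II and general transcription genes 0.02 over 25 (−0.091) and chromatin regulators 0.086 over 10 (−0.021). In level, the leading peaks were Rita1/Ddx54 for RNA processing with 97.7 to 111 CPM over the libraries, Lnx2/Polr1d for transcription with 85.7 to 108 CPM, Eif3k/Map4k1 for translation with 83.1 to 104 CPM and Rbbp4/Zbtb8os for chromatin with 57.5 to 66.7 CPM. The smallest p-values of their groups were at Ftsj3/Psmc5, a proteasome ATPase opposite a rRNA methyltransferase, with 19.9 and 29.5 CPM in Ctrl and 36.5 and 40.7 CPM in KO (0.63, SE 0.34), at Ccdc92/Zfp664 with 14 and 8.93 against 17.1 and 20.4 CPM (0.73, SE 0.45) and at Med29/Paf1, a Mediator subunit opposite a subunit of the Paf1 elongation complex, with 22.6 and 37.2 against 37.3 and 46 CPM (0.47, SE 0.33, and 0.16 without Ctrl 1). None of these 3 had an unadjusted p under 0.05.

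Of the 170 T cell and immune genes listed, few had a member peak. Of the 5 pairs with such a gene, 2 had a member peak, 2 had no peak and the other had only a wider peak. Park7/Tnfrsf9, with a costimulatory receptor gene, was left out by its width of 5027 bp and had 134 CPM. The 2 member peaks were both low. Tctn3/Entpd1, where Entpd1 encodes the ectonucleotidase CD39 of Treg cells, had 12.7 and 4.17 CPM in Ctrl and 10.4 and 7.19 CPM in KO. Smyd1/Cd8b1, with the beta chain of CD8, had 8.6 and 4.17 against 5.59 and 8.39 CPM, and at 6.13 CPM per kb was the second lowest of all members. The list does not hold every immune gene: Cd274 was not in it, nor was Il17rb, whose pair Il17rb/Chdh had 39.8 and 43.2 CPM in Ctrl and 53.7 and 63.5 CPM in KO (named after its values were seen).

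Genes whose mRNA was higher or lower in KO were taken, by name only, from the list the study published for adult large intestinal Treg cells, which are older animals than those here. Genes of the higher list had 63 member peaks, 48 of them higher in KO, with a median log2 fold change of 0.16. The KO libraries were both above Ctrl at 21 and both below at 1, beside 19.3% and 8.39% of all members and 16.9% and 16.4% of all tested peaks. Of all members 58.9% were higher in KO, and of all tested peaks 49.2%. Genes of the lower list had 48 member peaks, 21 of them higher in KO, with a median of −0.034, and the KO libraries were both above Ctrl at 0 and both below at 8. With the loess offset the medians were 0.0046 and −0.17, so both medians depended on the scaling. The median of all members moved the same way, from 0.051 to −0.072, and the higher list stood above the lower list under both scalings. One member of the higher list, S100a1/S100a13, was higher in KO at an unadjusted p under 0.05 in edgeR, and 2 of the lower list were lower. At that limit 1.27% of all members were higher and 0.633% lower, beside 1.45% and 2.79% of all tested peaks. None passed the adjusted threshold in edgeR.

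In 17 pairs both partners were on these mRNA lists. Of these, Tbc1d10c/Ppp1ca and Park7/Tnfrsf9 had no member peak, and Pecam1/Milr1 had 2, neither of them over both starts. Both were higher in 6 of them, both lower in 9, and in 2, Cenpx/Lrrc45 and Park7/Tnfrsf9, the partners went opposite ways. Dhx38/Txnl4b, a splicing helicase opposite a spliceosome-related thioredoxin-like gene, was on the lower list with both genes and had 34.4 and 27.4 CPM in Ctrl and 21.6 and 18.4 CPM in KO (−0.62, SE 0.37, edgeR adjusted p 0.998). Ddias/Prcp and Pcid2/Cul4a were also on it with both genes (the latter named after its values were seen), and their log2 fold changes were −0.12 and −0.0015. S100a1/S100a13 was on the higher list with both genes, and Ostf1/Nmrk1 and Vps26b/Ncapd3, likewise on it and named after their values were seen, had 0.053 and 0.062. At Cenpx/Lrrc45, where mRNA of Cenpx was higher and of Lrrc45 lower, the one peak had 14.9 and 11.6 CPM in Ctrl and 11.6 and 18.4 CPM in KO (named after its values were seen).

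The width limit left out 17 pairs that carried only a wider peak. Just inside it stood Srrd/Hps4 at 4979 bp, with 45.5 CPM and a log2 fold change of 0.014. Just outside was Park7/Tnfrsf9 at 5027 bp, with 134 CPM and 0.23, where Tnfrsf9 encodes the costimulatory receptor 4-1BB of activated Treg cells. The widest was at Mob3a/Izumo4, 14319 bp with 349 CPM. At the limit of distance, Btf3l4/Txndc12 had starts 987 bp apart and 1 member peak, and Asphd1/Sez6l2, at 981 bp, had none. The 91 pairs with no peak were of mixed kinds. They held Col4a4/Col4a3 with basement membrane collagens and Klc3/Ckm with muscle creatine kinase, but also widely used genes, such as Rnf151/Rps2 with a ribosomal protein and Sec24a/Sar1b with components of COPII vesicles, and Lrrc63/Lcp1 with the leukocyte actin bundler L-plastin (all named after the list was seen). A pair without a peak was not called above background in the merged peak set, and its counts were not analysed here.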

How the data were processed

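The authors trimmed the reads, aligned them to mm10 with Bowtie2, kept unique reads, removed duplicates, ran MACS2 with IgG as background and merged the peak sets by bedtools (versions not given in the sources used here). They deposited raw counts of reads per merged peak for 4 libraries, with no normalization. Peaks were called on the libraries compared here, so that the set depends on their signal.

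Gene starts were taken from GENCODE M21 basic, and bases from GRCm38, whose chromosome lengths fit the table. A minimum of 10 counts in 2 or more libraries left 74550 peaks. KO was compared with Ctrl in edgeR 4.0.16 (R 4.3.3), by its quasi-likelihood test with TMM and Benjamini-Hochberg adjustment over all of them and no covariate. The prior degrees of freedom were infinite, so a peak's own replicate spread did not enter its p. The SE of a log2 fold change was calculated back from the F value of that test, so the same holds for it. DESeq2 1.42.0, which the study used, was an alternative, as were other scalings, count minimums, a replicate block, leaving out each library, other readings of the pair rule and no limit on peak width. Shares of counts were compared with the exact permutation test of SciPy 1.17.1, and levels with an exact sign-flip test coded in Python 3.11.15. CPM per kb divides by peak width. The CpG ratio is the CpG count times the window length over the product of C and G counts.

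The code was tested on simulated counts. Members, gene lists and motifs were chosen with earlier results of these data known. Named peaks are those at textbook pairs, the 5 with the highest mean CPM, the 5 higher and 5 lower with the smallest p whose libraries do not overlap, those with a T cell partner, and of each other list the highest and the one with the smallest p. Some items that this rule or the lists name are not reported here. Further names are marked as chosen after their values were seen. The mRNA lists had 719 and 562 names, of which 711 and 558 matched. The study's methods call each such pool of mice a biological replicate. Neither they nor the labels say whether the 2 libraries of a group came from separate litters. The p-values rest on the spread between these libraries, pooled over peaks of like abundance.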

Additional observations from a re-analysis of the deposited data

How the results depend on the processing

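No member passed the adjusted threshold under any alternative except the replicate block, which called 1 member (Idh3g/Ssr4, adjusted p = 0.0294 in edgeR) and 211 of all tested peaks, and at an unadjusted p under 0.05 gave 46 higher members and 12 lower ones. Deviations of same-numbered Ctrl and KO libraries from their group means correlated at 0.264 over 74550 peaks. With 2 libraries per group, the value for crossed numbers, −0.264, is fixed by the former one. Such a value from only 2 pairs cannot decide whether the numbers pair the libraries. The study's methods call the Ctrl and KO mice littermates, but do not say that a number marks a litter, and Idh3g/Ssr4 had no call without the block. The counts of 8 higher and 4 lower members became 2 and 0 in DESeq2, 4 and 6 under scaling by total counts, 4 and 5 with the loess offset, 7 and 1 with all peaks of any count, and 2 and 3 under a minimum of 50 counts in 2 or more libraries (556 members). Leaving out 1 library gave 1 to 10 higher and 2 to 11 lower. The median log2 fold change of 0.051 became −0.03 with total counts, −0.072 with the loess offset, −0.067 with at least 50 counts, and −0.021 to 0.11 when a library was left out, lowest without KO 2. The KO minus Ctrl difference in the share of counts, 0.011 percentage points, ran from −0.085 without Ctrl 2 to 0.11 without Ctrl 1, with −0.019 without KO 2. The level difference from one-direction promoters, 0.23, stayed between 0.20 and 0.27 in all alternatives, including one chosen after seeing the data that left out one-direction promoters with overlapping coding starts (0.24). Reading the rule by transcript starts gave 848 members, starts at most 300 bp apart 524 and no width limit 648, and these changed none of the medians in direction.

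Of 36 named peaks, 24 kept their sign in every alternative. With the loess offset the log2 fold change was −0.053 at Mcm4/Prkdc, −0.17 at Tada3/Arpc4, −0.036 at Zfp91/Lpxn, −0.072 at Lnx2/Polr1d, −0.056 at Rita1/Ddx54, −0.11 at Eif3k/Map4k1 and −0.002 at Rbbp4/Zbtb8os. With at least 50 counts it was −0.016 at Mcm4/Prkdc, −0.036 at Tada3/Arpc4 and −0.03 at Eif3k/Map4k1. When a library was left out, the values that changed sign ran from −0.29 without KO 1 to 0.36 without KO 2 at Mcm4/Prkdc, from −0.12 without KO 2 to 0.22 without KO 1 at Tada3/Arpc4, from −0.11 without KO 2 to 0.22 without KO 1 at Eif3k/Map4k1, from −0.39 without Ctrl 2 to 0.19 without Ctrl 1 at Ddias/Prcp, from −0.54 without Ctrl 2 to 1.05 without Ctrl 1 at Tctn3/Entpd1, from −0.27 without Ctrl 2 to 0.75 without Ctrl 1 at Smyd1/Cd8b1, and from −0.09 without KO 2 to 0.48 without Ctrl 2 at Brd8/Kif20a. At Wrap53/Trp53 they ran from −0.54 without KO 2 to 0.0042 without KO 1. The causes were not tested, beyond the fewer libraries or peaks that each alternative holds. With 2 libraries per group and medians of 72 to 136 counts per member, no limit of detection was measured, and a log2 fold change of 0.87 (SE 0.32) at Idh3g/Ssr4 had an adjusted p of 0.998 in edgeR.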
